A study of Rattus norvegicus with 24 samples.

Results

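The alpha and beta cardiac myosin heavy chain genes, Myh6 and Myh7, are 2 of the 32883 genes in the deposited tables. They were chosen by identifier, as ENSRNOG00000025757 for Myh6 and ENSRNOG00000016983 for Myh7. The low left ventricular level of ENSRNOG00000025757 in the DAAO group was already known when the choice was made. The difference between the DAAO and CTL groups is therefore given here as a description, with no test. No annotation at hand pairs these identifiers with symbols, so the names rest on the choice itself. In all 24 libraries both genes stood among the most abundant transcripts, at ranks 5 to 35 for Myh6 and 7 to 46 for Myh7.

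The libraries are bulk RNA sequencing of hearts from rats of strain WI. Left ventricle with septum and right ventricular free wall were each sampled in 6 CTL animals, read here as control, and 6 DAAO animals. DAAO commonly stands for D-amino acid oxidase, which produces hydrogen peroxide when given a D-amino acid, and the title of the series names chemogenetic heart failure. The labels give no sex, age, vector, promoter, targeted cell type, enzyme species, substrate, dose or time, for either group. Animals carry the names of the deposited columns (C_ for CTL, D_ for DAAO, then the number of the label). All DAAO numbers are higher than all CTL numbers, so group and any unlabelled cohort behind the numbers cannot be told apart. No label states that each number is its own rat, so p-values measure no more than the spread among these libraries, which may be technical.

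Myosin heavy chain is the motor of the thick filament, which hydrolyses ATP to pull on actin. The alpha chain has the faster ATPase, and the beta chain is slower and uses less ATP for the same force. Adult rat ventricle is known for mostly alpha chain, thyroid hormone favours Myh6 over Myh7, and a shift from alpha to beta is a classic mark of the overloaded or failing rodent heart. In RefSeq's annotation of the GRCr8 assembly, the genes are direct neighbours, with 0 genes between them. Each holds the hairpin of a microRNA of the miR-208 family, which is transcribed with its host. The mature 3p arms from RefSeq (GRCr8), on the minus strand as their hosts, are shown because they are the other products of the transcripts counted here. They are printed 5′ to 3′, with the seed (bases 2 to 8) in capitals.
rno-miR-208a-3p, from Myh6: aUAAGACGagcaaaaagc
rno-miR-208b-3p, from Myh7: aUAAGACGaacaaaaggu
These arms share their seed and 15 of 18 bases. Their own levels were not analysed here, and the values that follow are those of the host genes.

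Depth was 15363539 to 23263897 recovered reads in left and 13280705 to 18777633 in right ventricular libraries. Myh6 held at least 38253 reads and Myh7 at least 31130 in any library, so counting error is small beside the spread between animals. The 2 sequences are close paralogs, and how reads that fit both were counted is not given in the sources used here. Several CTL libraries stand apart. Animals C_7000 and C_7005 have numbers far from the other CTL animals, and the group differences are given with and without them. In CTL, the left and right libraries of 3 animals also did not match best under their own number. This was measured across 13342 genes other than Myh6 and Myh7, as the correlation of deviations from the group mean. The own right library was the best match for 6 of 6 DAAO animals (r from 0.511 to 0.715) and for CTL animals C_7000, C_7005 and C_7121 (r of 0.492, 0.788 and 0.535). For CTL animals C_7118, C_7120 and C_7123 the own match had an r of 0.061, 0.057 and 0.254. The left library of C_7118 matched the right library of C_7123 best (r = 0.498), that of C_7120 matched the right library of C_7118 (r = 0.286), and that of C_7123 matched the right library of C_7120 (r = 0.264). Each of these matches was also the best one seen from the right library. Seen from the left, the last 2 led narrowly. Left C_7120 had r = 0.260 with right C_7123, and left C_7123 had r = 0.254 with its own right library. The points share genes within a library, and the cause of the mismatch was not tested.

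**Figure D1:**
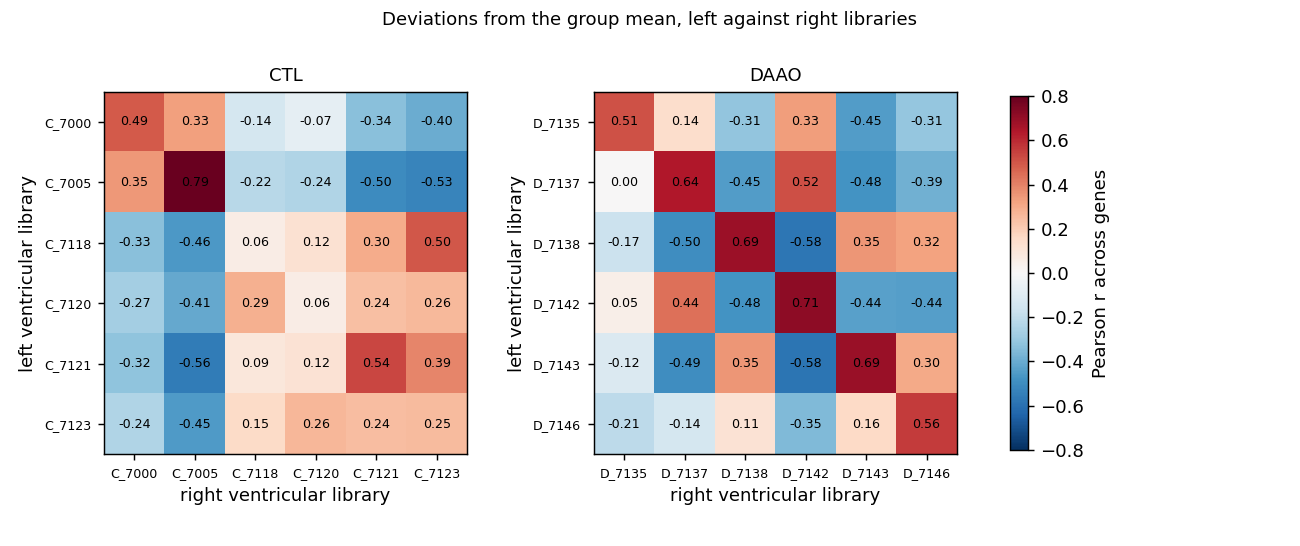
Pearson correlation across genes between left (rows) and right (columns) ventricular libraries, computed on deviations from the group mean, for CTL (left panel) and DAAO (right panel). The diagonal holds libraries of the same number: it is the highest value in its row for all 6 DAAO animals and for CTL animals C_7000, C_7005 and C_7121, and not for C_7118, C_7120 and C_7123.

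Myh6, the fast alpha chain, was low in every DAAO heart. In the left ventricle its normalized count (reads divided by the library's size factor) was 226185 at the lowest, 368246 at the median and 423048 at the highest in CTL, and 37590, 76118 and 119125 in DAAO. All 6 DAAO libraries lay below all 6 CTL libraries, as they did for 8.28% of the 14041 genes tested in that table. The mean was 335514 ± 85533 for CTL and 76090 ± 32220 for DAAO (SD, n = 6 each). The DAAO minus CTL difference was -2.22 on the log2 scale (SE 0.30, limma fit over all genes), 4.65-fold lower in DAAO. The median difference over all genes was 0.01. Folds are taken from mean log2 values here and below, and do not equal the ratio of the mean counts. For scale, limma called 37.3% of left ventricular genes at an adjusted threshold of 0.05. Myh6 took 1.73% ± 0.32 of all recovered reads in CTL against 0.449% ± 0.164 in DAAO (SD, n = 6 each). Its rank by abundance was 6 to 8 in CTL and 14 to 29 in DAAO. In bulk tissue, fewer cardiomyocytes and less Myh6 RNA per cell cannot be told apart.

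In the right ventricle Myh6 again separated the groups. It ranged from 219132 through a median of 283578 to 449441 in CTL, and from 29724 through 91448 to 146219 in DAAO. All 6 DAAO libraries lay below all CTL libraries, as for 5.5% of the 13489 genes tested in the right ventricle, where limma called 26.5% of genes. The difference was -2.01 on the log2 scale (SE 0.42), 4.04-fold lower in DAAO. The lowest Myh6 libraries of both ventricles came from the same DAAO animals, D_7138 (44209 left, 30811 right) and D_7146 (37590 left, 29724 right). The highest DAAO levels were those of D_7142 in both ventricles, 119125 and 146219. Without CTL animals C_7000 and C_7005 the difference was -2.47 in the left and -2.10 in the right ventricle.

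Myh7, the slow beta chain, did not separate the groups. In the left ventricle its normalized count was 64750 at the lowest, 151928 at the median and 281251 at the highest in CTL, and 149524, 186858 and 243860 in DAAO. All 6 DAAO libraries lay inside the CTL range. The CTL libraries were spread wider than the DAAO libraries, with a coefficient of variation of 53.9% against 19.8%. In CTL, 3 libraries lay below every DAAO library, those of C_7118 (64750), C_7121 (77151) and C_7123 (116681). Those of C_7000 (197595) and C_7005 (187175) lay within the DAAO range, and that of C_7120 (281251) above it. The group difference was 0.50 on the log2 scale (SE 0.34), 1.41-fold higher in DAAO.

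In the right ventricle Myh7 ranged from 32897 through a median of 120965 to 220834 in CTL, and from 98934 through 188103 to 228325 in DAAO. Of the DAAO libraries 5 lay within the CTL range and 1, of animal D_7142, above it. Again 3 CTL libraries lay below every DAAO library, now those of C_7120 (79663), C_7121 (53824) and C_7123 (32897). Animals C_7118 and C_7120 thus changed places between the ventricles: C_7118 was the lowest CTL animal for Myh7 in the left (64750) and near the top in the right (212861), and C_7120 was the highest in the left (281251) and low in the right (79663). The right ventricular difference was 0.80 on the log2 scale (SE 0.44), 1.74-fold higher in DAAO. Without C_7000 and C_7005 the Myh7 difference was 0.75 in the left and 1.25 in the right ventricle. Without C_7118, C_7120 and C_7123 it was 0.42 and 0.50. The size of the Myh7 difference therefore varied with which CTL animals entered.

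**Figure D2:**
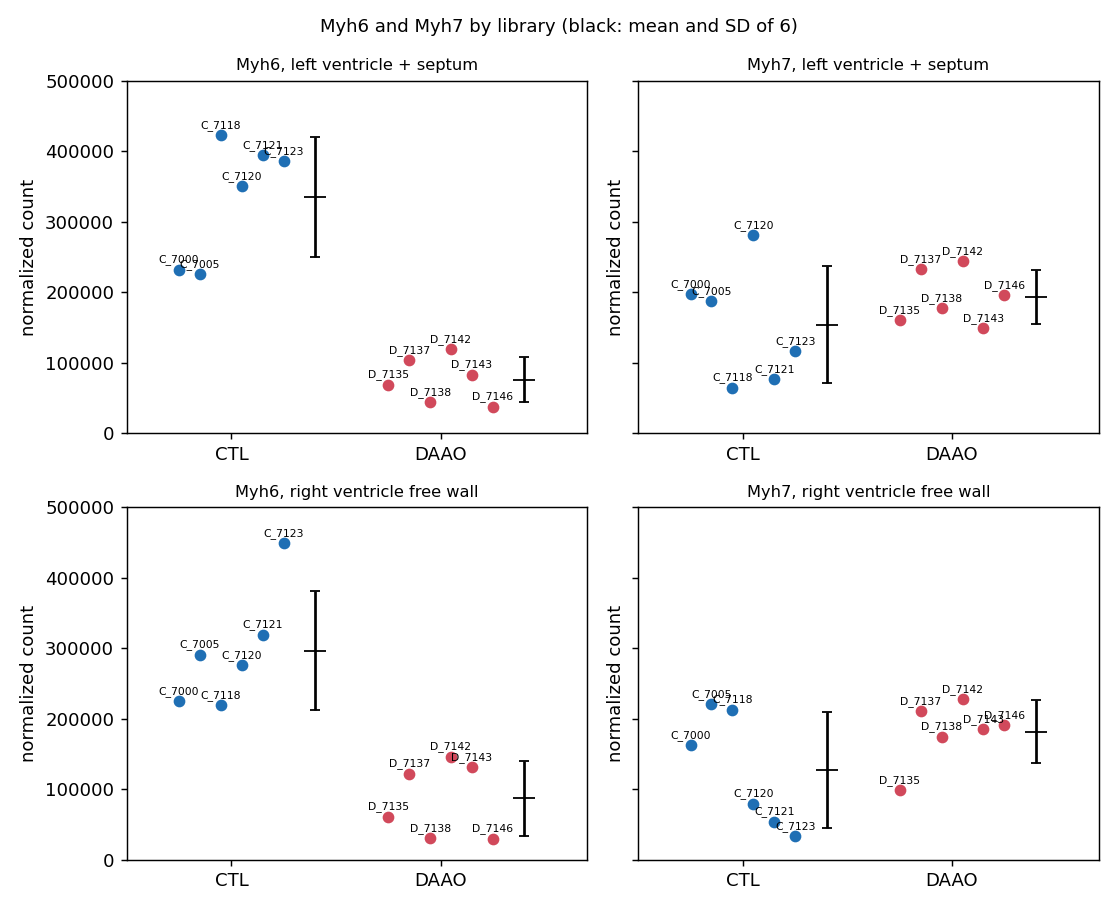
Normalized count of Myh6 (left panels) and Myh7 (right panels), 1 point per library with its animal, for the left (top) and right (bottom) ventricle; black bars give the mean and SD of 6 libraries. Myh6 separates DAAO from CTL in both ventricles, while Myh7 overlaps and is spread more widely in CTL.

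The balance of the genes was measured within each library as the ratio of Myh6 to Myh7, in which the size factor cancels. The ratio is of reads and not of molecules per length, so it is compared between libraries only. In the left ventricle it ranged from 1.18 through a median of 2.28 to 6.53 in CTL, and from 0.192 through 0.437 to 0.555 in DAAO. In the right ventricle it ranged from 1.03 through 2.43 to 13.7 in CTL, and from 0.156 through 0.597 to 0.712 in DAAO. Every CTL library thus held more Myh6 than Myh7 reads and every DAAO library fewer, in both ventricles. The difference in mean log2 ratio was -2.71 (SE 0.53) in the left and -2.81 (SE 0.73) in the right ventricle. These are 6.55-fold and 7.01-fold lower ratios in DAAO. Without C_7000 and C_7005 the log2 differences were -3.22 and -3.35. Whether the left and right differences differ from each other was not tested, since the left difference had chosen a member.

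As a share of the reads of both genes, Myh6 held 68.6% ± 15.5 in the left and 70.3% ± 17.5 in the right ventricle of CTL (SD, n = 6). In DAAO it held 27.6% ± 7.8 and 30.6% ± 12.8. The 95% Wilson interval of this share was at most 0.434 percentage points wide in a single library, which covers counting error only. The CTL shares lay in separate ranges in each ventricle. In the left, C_7000, C_7005 and C_7120 lay from 54.0% to 55.5%, and C_7123, C_7121 and C_7118 at 76.8%, 83.7% and 86.7%. In the right, C_7118, C_7005 and C_7000 lay from 50.7% to 58.1%, and C_7120, C_7121 and C_7123 at 77.6%, 85.6% and 93.2%. The DAAO shares also lay apart, in both ventricles. In the left they were 19.9% in D_7138 and 16.1% in D_7146 and from 30.1% to 35.7% in the 4 others. In the right they were 15.0% in D_7138 and 13.5% in D_7146 and from 36.6% to 41.6% in the 4 others.

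Reads of both genes together took a smaller mean share of the libraries in DAAO. In the left ventricle they made up 2.55% ± 0.35 of all recovered reads in CTL against 1.60% ± 0.24 in DAAO (SD, n = 6 each), and all 6 DAAO libraries lay below all CTL libraries. In the right ventricle they made up 2.47% ± 0.39 and 1.82% ± 0.45, and 4 of 6 DAAO libraries lay below every CTL library. For scale, 8.28% of left and 5.5% of right ventricular genes had every DAAO normalized count below every CTL one. That scale is of single genes, normalized counts and full separation. It is therefore not matched to a share of reads or to 4 of 6 libraries. The lower sum comes from Myh6, whose low left level was known beforehand. The mean Myh7 share was higher in DAAO, 1.15% against 0.825% in the left and 1.24% against 0.745% in the right ventricle.

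The chambers were set side by side within each group. The left ventricular values of both groups entered the difference that had drawn attention to Myh6, so this too is a description, with no p. The log2 ratio was used because the tables were normalized separately. In CTL it was 1.27 ± 1.13 in the left and 1.51 ± 1.47 in the right ventricle (SD, n = 6 each), a left minus right difference of -0.24 (SE 0.76). In DAAO it was -1.44 ± 0.61 in the left and -1.30 ± 1.01 in the right, a difference of -0.14 (SE 0.48). Both differences were smaller than their SE, which does not show that the chambers are alike. Both SEs treat the left and right libraries as unpaired. The SD of the 6 differences by animal number was 1.63 in CTL and 0.43 in DAAO. An SE by animal number would therefore be smaller than the one given in both groups, and more so in DAAO. The CTL estimate was 0.0087 without C_7120, 0.12 without C_7123, -0.82 without C_7118, -0.27 without C_7000 and C_7005, and -0.19 without C_7118, C_7120 and C_7123.

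Under the same number, the ventricles agreed closely in some animals and not in others. In CTL the left minus right log2 ratio was -0.24 in C_7000, -0.13 in C_7005 and -0.21 in C_7121. It was 2.67 in C_7118, -1.48 in C_7120 and -2.05 in C_7123, the animals whose libraries did not match best under their own number. Set side by side by the best match, the left log2 ratio of C_7118 (2.71) stands beside the right one of C_7123 (3.77). That of C_7120 (0.32) stands beside C_7118 (0.04), and that of C_7123 (1.73) beside C_7120 (1.79). The best matches of left C_7120 and C_7123 led narrowly, so this order is not settled. In DAAO the difference never exceeded 0.52 in size. The left ratio was the lower one in D_7135, D_7137, D_7142 and D_7143, by 0.36 to 0.52. It was the higher one in D_7138 (0.50) and D_7146 (0.30), the animals with the lowest ratios.

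**Figure D3:**
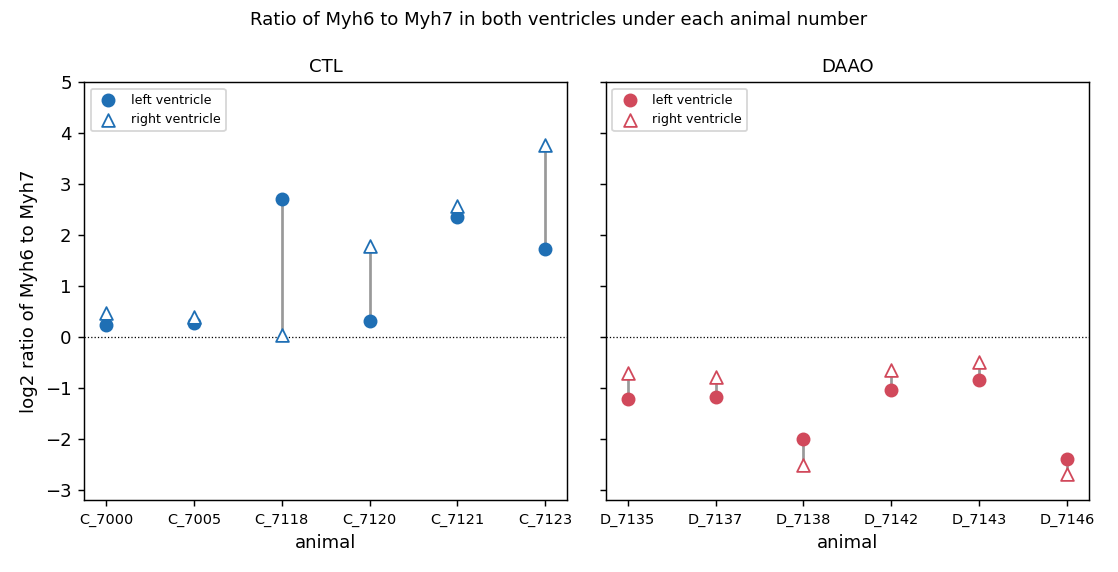
Log2 ratio of Myh6 to Myh7 by animal, CTL left and DAAO right; filled circles are left and open triangles right ventricular libraries, joined for the same number, and the dotted line marks equal reads. All CTL points lie above 0 and all DAAO points below, and the long lines are those of CTL animals C_7118, C_7120 and C_7123.

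The order of the animals was compared between ventricles within each group, in a family of 6 correlations with Benjamini-Hochberg adjustment. Left ventricular Myh6 values had entered the choice of the gene. The group difference does not enter a correlation within a group, but the choice may still bear on these p-values. In DAAO, libraries of the same number also went together across 13342 other genes (r from 0.511 to 0.715). How many other genes reach a like r between ventricles was not computed. Over the 6 DAAO animals the left and right log2 ratios had a Pearson r of 0.982 (exact permutation p = 0.00278, adjusted p = 0.0167) and a Spearman rho of 0.943 (exact permutation p = 0.0167, adjusted p = 0.1). Animals D_7138 and D_7146 lie apart from the 4 others and are the 2 farthest from the median in both ventricles. Without them r was 0.915 over 4 animals, too few for the adjusted p to pass the threshold. Leaving out any 1 DAAO animal gave r from 0.977 to 0.991, close to the value of all 6. With 5 DAAO animals, and beside the other p-values of the family, the adjusted p of this correlation could not have gone below 0.05. These values therefore bear on the size of r and not on the call. Over the 6 CTL animals r was 0.238 (exact permutation p = 0.624, adjusted p = 0.689) and rho 0.029 (exact permutation p = 1, adjusted p = 1). Without C_7118 and C_7121, the farthest from the median of the left ratio, the CTL r was 0.929 over 4 animals. On the right ratio the farthest were C_7123 (3.77) and C_7121 (2.57), and r without these was not computed. Without C_7118 alone r was 0.794, and without C_7123 alone 0.139. Only 3 CTL animals remain without C_7118, C_7120 and C_7123, too few for a correlation.

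Within a group, the correlation of Myh6 with Myh7 was negative in CTL and positive in DAAO, and none of these 4 relations passed the threshold. In CTL their log2 levels had r = -0.647 in the left ventricle (exact permutation p = 0.186, adjusted p = 0.372; rho -0.771, exact permutation p = 0.103, adjusted p = 0.308). In the right ventricle of CTL r was -0.836 (exact permutation p = 0.0333, adjusted p = 0.1; rho -0.657, exact permutation p = 0.175, adjusted p = 0.35). Without the 2 libraries farthest from the median of Myh6 these were -0.967 (without C_7000 and C_7005) and -0.510 (without C_7118 and C_7123). Each rests on 4 libraries. Without C_7005 alone the right ventricular r was -0.968 (adjusted exact permutation p = 0.025). In DAAO r was 0.406 in the left (exact permutation p = 0.399, adjusted p = 0.598; rho 0.429, exact permutation p = 0.419, adjusted p = 0.503). In the right ventricle of DAAO it was 0.313 (exact permutation p = 0.689, adjusted p = 0.689; rho 0.486, exact permutation p = 0.356, adjusted p = 0.503). Without D_7138 and D_7146 the DAAO values were 0.892 and 0.976 over 4 libraries. After scaling all libraries to an equal total, r over all 6 DAAO libraries was 0.068 in the left and 0.061 in the right ventricle. The positive sign over 6 DAAO libraries is therefore weak and leans on the deposited scaling. Whether the CTL and DAAO relations differ was not tested.

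**Figure D4:**
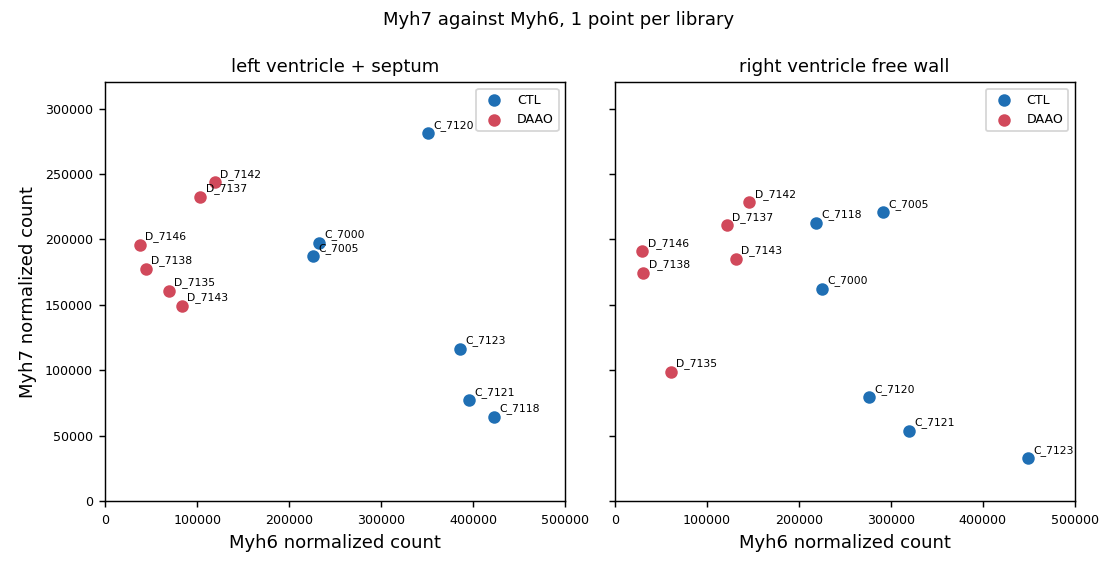
Myh7 against Myh6 normalized count, 1 point per library with its animal, for the left and right ventricle. In CTL, Myh7 is mostly lower where Myh6 is higher, but neither correlation passed the threshold. Exceptions are C_7120 in the left ventricle (Myh6 350426, Myh7 281251) and C_7005 in the right (Myh6 291137, Myh7 220834). DAAO libraries lie at low Myh6, with Myh7 inside the CTL range except for the right ventricle of D_7142.

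The genes whose pattern was most like each member were sought among 10954 other genes that averaged at least 50 normalized counts in both tables. Likeness was the lower of the Pearson correlations of log2 values over the 12 left and the 12 right ventricular libraries, which include the group difference, so it is a description. For Myh6, 250 genes had an r of at least 0.9 in both ventricles, and 25 had an r of -0.9 or below in both. For Myh7, 0 genes did in either direction, and the highest likeness was 0.755. The files do not pair these identifiers with names. The closest to Myh6 were ENSRNOG00000019485 (r = 0.977 left, 0.976 right) and ENSRNOG00000011782 (r = 0.983 left, 0.972 right). The left ventricular normalized count of ENSRNOG00000019485 was 1948 ± 339 in CTL against 1011 ± 160 in DAAO, and that of ENSRNOG00000011782 was 27544 ± 4001 and 14165 ± 2253 (SD, n = 6 each). These differ by -0.94 and -0.96 on the log2 scale, less than the -2.22 of Myh6. The closest to Myh7 were ENSRNOG00000008224 (r = 0.768 left, 0.755 right) and ENSRNOG00000019740 (r = 0.733 left, 0.738 right). The left ventricular normalized count of ENSRNOG00000008224 was 201 ± 35 for CTL and 267 ± 32 for DAAO (SD, n = 6 each). Myh6 and Myh7 themselves had an r of -0.441 in the left and -0.451 in the right ventricle over the 12 libraries.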

How the data were processed

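Both deposited tables, 1 per ventricle with 6 CTL and 6 DAAO libraries each, hold normalized counts: a signal that the authors made by dividing each library's gene counts by its own size factor. The submitters' processing notes name STAR (2.7.0a), FastQC, DESeq2 (1.26.0) and the build Rnor_6.0; which read counter, annotation and strand setting were used is not given in the sources used here. Within 1e-06, 100% of the values above 0 were whole multiples of the smallest value of their library, and dividing by it gave back the reads.

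Limma 3.58.1 in R 4.3.3 was fitted to each table, to log2(value + 1) of genes averaging at least 10, with a trend of variance on mean and Benjamini-Hochberg adjustment (threshold 0.05); the fit was tested on simulated data with 200 changed genes. Exact permutation tests were two-sided (Python 3.11.15, SciPy 1.17.1). Alternatives were edgeR 4.0.16 and DESeq2 1.42.0 on recovered reads, pseudocounts, filters, scaling to equal totals and leaving out animals. Members, lists and tests were chosen with earlier results of these data known. The rule for other named genes took the 2 most like each member. Gene lists and cell type markers fixed by symbol could not be run, because 0 of the 32883 identifiers matched the 47357 RefSeq genes, so the labelled tissue was checked against no marker.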

Additional observations from a re-analysis of the deposited data

How the results depend on the processing

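The signs of the Myh6, Myh7 and ratio differences between DAAO and CTL were the same under every alternative run. Leaving out 1 animal gave -2.37 to -2.04 (left) and -2.22 to -1.76 (right) for Myh6, 0.28 to 0.71 and 0.47 to 1.02 for Myh7, and -2.92 to -2.42 and -3.10 to -2.36 for the log2 ratio. Equal totals moved the median over all genes from 0.01 to 0.22 (left) and from 0.02 to 0.27 (right). Myh6 then stood at -2.02 and -1.77 and Myh7 at 0.70 and 1.04. For Myh7, edgeR gave 0.34 and 0.52, and DESeq2 0.33 and 0.51. For Myh6, edgeR and DESeq2 both gave -2.14 and -1.77. The difference in log2 ratio was -2.48 and -2.29 with edgeR and -2.47 and -2.29 with DESeq2. These are smaller in size than the -2.71 and -2.81 of the main fit. In the right ventricle they lie outside the range without 1 animal. The left minus right ratio in CTL ranged from -0.82 to 0.12 without 1 animal, changing sign without C_7120 (0.0087) and C_7123 (0.12), and in DAAO from -0.27 to -0.07.

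With the animal number as a replicate block the mean left minus right ratio is the same by construction (-0.24 in CTL, -0.14 in DAAO), and no p is given for it. By the correlations of deviations the numbers pair the DAAO but not all CTL libraries. Without 1 animal, r for the ratio between ventricles ranged from 0.087 to 0.794 in CTL and from 0.977 to 0.991 in DAAO. It was 0.915 in DAAO without D_7138 and D_7146. For this DAAO correlation, beside the other p-values of the family, the adjusted p could not pass the threshold with 5 or 4 animals. The missing DAAO calls there therefore say nothing about stability. For Myh6 with Myh7, r ranged from -0.938 to -0.517 (CTL left), -0.968 to -0.641 (CTL right), 0.088 to 0.654 (DAAO left) and 0.133 to 0.667 (DAAO right); CTL right passed without C_7005 (-0.968). Genes called over the whole table numbered 5235 (left) and 3574 (right), 4411 to 6472 and 2587 to 4252 without 1 animal, and 2209 and 1000 without C_7118, C_7120 and C_7123, an alternative chosen after seeing the data, which leaves fewer samples. Equal totals moved the split from 2430 higher and 2805 lower to 4337 and 1628 in the left, and from 1684 and 1890 to 3815 and 932 in the right ventricle. Without C_7000 and C_7005 the planned repeat of the CTL correlations was left out. The exception was Myh6 with Myh7 in CTL left, where these were the 2 animals farthest from the median of Myh6 (r = -0.967).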
